A study of Mus musculus with 6 samples.

Results

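The genes described are 6 keratins of simple epithelium and urothelium: the type II keratins Krt5, Krt7 and Krt8 and the type I keratins Krt18, Krt19 and Krt20. They were found by gene name on the array, which gave 8 of its 41174 probes, with 2 probes each for Krt7 and Krt8 and 1 for each other gene. All 8 probes, and so all 6 genes, stood above background on all 6 arrays and entered the test over 19601 genes. The study tied the left ureter of 3 CD-1 mice (495, 485 and 512) completely and put RNA of that ligated kidney and of the right, contralateral one on an array each. CD-1 mice are outbred, no transgene is named, and the age and sex of the mice and the time from ligation to sampling are not given in the sources used here. The untied kidney also belongs to an operated animal, so neither group is a kidney of an unoperated mouse. The labels call the material both kidney and primary cells.

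Keratins are the intermediate filament proteins of epithelial cells, and a filament always pairs a type I with a type II chain. Krt8 and Krt18 are the usual pair of simple epithelia and are known in the kidney mainly from collecting duct and distal tubule, where Krt7 and Krt19 are also found. Krt7 and Krt19 are also keratins of ducts and urothelium, Krt5 marks basal cells of urothelium and stratified epithelium, and Krt20 marks the umbrella cells of urothelium and has been described in injured tubules.

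Krt8 and Krt18 are neighbours on chromosome 15, with 0 protein-coding genes between them in the RefSeq annotation. In mm8 the Krt8 probes lie at chr15:101824949-101825008 and chr15:101824817-101824876 on the minus strand, and the Krt18 probe at chr15:101859944-101860003 on the plus strand. The Krt7 probes lie at chr15:101255775-101255834 and chr15:101251321-101251380 and the Krt5 probe at chr15:101535117-101535176. Krt19 (chr11:99957168-99957227) and Krt20 (chr11:99244552-99244611) are measured on chromosome 11. Whether a probe lies in coding sequence or a UTR was not worked out here, since no transcript annotation of mm8 was used. Krt7 and Krt8 each rest on the brighter of their probes, listed first.

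The probes of Krt8, Krt18, Krt7 (its dimmer probe) and Krt19 are shown because these are related genes whose signals are set side by side. Each is given 5′ to 3′, with capitals for the longest run it shares with a probe of another of the 6 genes. For Krt7 and Krt19 other runs were equally long. Their capitals show the run shared with the dimmer Krt8 probe, which is not printed.
Krt8: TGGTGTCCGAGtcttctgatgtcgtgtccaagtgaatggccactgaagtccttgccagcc
Krt18: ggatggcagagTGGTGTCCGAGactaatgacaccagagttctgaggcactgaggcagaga
Krt7: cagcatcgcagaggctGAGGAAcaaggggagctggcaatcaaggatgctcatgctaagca
Krt19: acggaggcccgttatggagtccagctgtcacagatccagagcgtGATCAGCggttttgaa
The Krt8 and Krt18 probes share 11 of 60 bases in a row, and no other pair of probes for different genes among the 6 shared more than 7. Matches to other transcripts, keratin pseudogenes included, were not searched.

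RefSeq promoters (GRCm38.p6) were matched for 5 of the 6 genes. Those of Krt8, Krt18 and Krt20, which were higher in the ligated kidney of all 3 mice, are shown as the 100 bases before the start, with capitals for the letters TATAA or ATAAA within 40 bases of the start.
Krt8, chr15:102004343-102004442, minus strand: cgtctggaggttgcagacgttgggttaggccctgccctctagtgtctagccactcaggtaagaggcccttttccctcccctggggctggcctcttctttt
Krt18, chr15:102028116-102028215, plus strand: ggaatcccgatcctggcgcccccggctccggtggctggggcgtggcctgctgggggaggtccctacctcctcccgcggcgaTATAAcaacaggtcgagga
Krt20, chr11:99438154-99438253, minus strand: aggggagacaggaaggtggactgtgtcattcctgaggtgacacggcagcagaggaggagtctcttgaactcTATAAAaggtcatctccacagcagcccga
The letters were searched on both strands, and TATAA and ATAAA overlap in the Krt20 promoter. TATAA was in the window for Krt18 and Krt20 and ATAAA for Krt20, Krt5 and Krt7, against 5.38% and 8.42% of 32851 RefSeq promoters. The Krt8 window held neither. GGGCGG, searched on both strands over the 250 bases before the start, was found in the Krt7 promoter, at 4 places, and in 32.7% of all promoters.

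A level is given below as a multiple of the array's 75th percentile of signal, and a difference as the log2 of ligated over contralateral, with its standard error over 3 mice from limma. A gene counts as called at an adjusted p under 0.05, over all genes. Levels of different probes are not comparable with each other. In bulk tissue, fewer cells of a type and less RNA per cell cannot be told apart.

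The arrays carried kidney RNA: Umod (thick limb), Lrp2 (proximal tubule), Aqp2 (collecting duct) and Nphs1 (podocyte) were above background on all 6. The contralateral kidney of mouse 512 stood apart from the other untied kidneys. Across genes, its levels correlated at 0.955 and 0.947 with the contralateral kidneys of mice 495 and 485 and at 0.970, 0.972 and 0.961 with the ligated kidneys of mice 495, 485 and 512; genes are not independent replicates. A summed level, here and below, weighs the brightest genes of a list most and does not describe the list as a whole. The summed level of 12 tubular injury markers was 139, 58.1 and 578 contralaterally in mice 495, 485 and 512, and 417 to 525 in ligated kidneys. For 16 proximal tubule markers the sums were 2224, 2459 and 669, and 362 to 506 in ligated kidneys. No cause for this was tested. Each keratin below is therefore given with and without mouse 512. Mice 495 and 485 share 1 slide and mouse 512 is on another, so these values are also those within the first slide; the second slide holds 1 pair.

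Krt8, Krt18, Krt19 and Krt20 were higher in the ligated kidney in 3 of 3 mice, by 1.48-fold, 2.66-fold, 3.95-fold and 18.2-fold on average. The share of all genes higher in 3 of 3 mice was not worked out, so this shared direction is not read as particular to keratins. Krt7 had no common direction over the mice, and Krt5 was high in a single ligated kidney. With all 3 mice, 0 of the 6 were called by limma, against 30.7% of all genes tested (16.0% higher and 14.7% lower). At an unadjusted p under 0.05 in limma there were 3 (Krt18, Krt19 and Krt20), as there were 9834 of all 19601 genes tested. Without mouse 512, so in mice 495 and 485 alone, Krt8, Krt18, Krt19 and Krt20 were called higher. These are 4 of 6, against 27.3% of all genes called higher in that fit. Leaving out mouse 495, or mouse 485, in its place called 0 of the 6 and 0 of all genes. Leaving out only the contralateral kidney of mouse 512, with no mouse block, called the same 4, against 26.3%. Smaller changes to the fit called some of them: Krt20 with no mouse block (14.0% of all genes higher), Krt18 and Krt20 with the slide as block (18.3%), and Krt19 and Krt20 with centring on spike-in spots (12.6%). Krt19 alone was called with normexp background correction (10.2%) and with an intensity trend (16.6%).

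**Figure D1:**
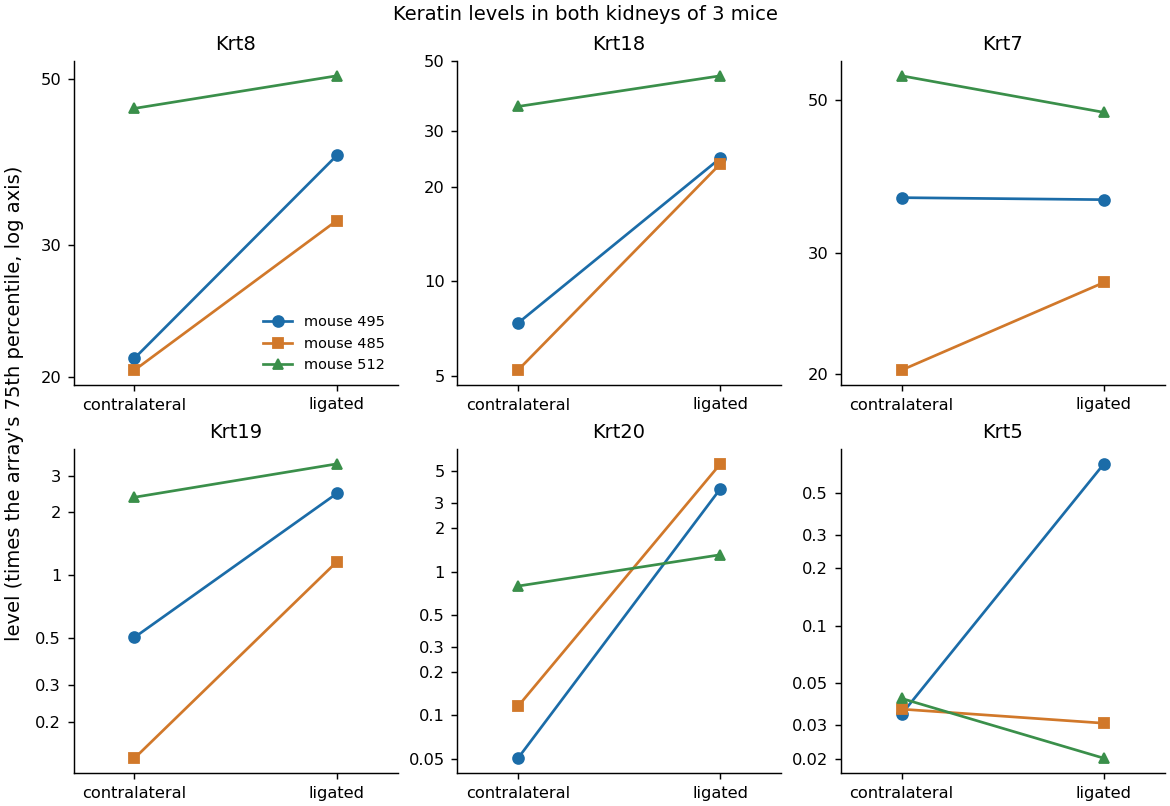
Levels of the 6 keratins in the contralateral and ligated kidney of each mouse, as multiples of the array's 75th percentile on log axes that differ between panels; each line joins the kidneys of 1 mouse. The lines of mouse 512 start high for Krt8, Krt18, Krt19 and Krt20 and are the flattest of the 3, and the line of mouse 495 alone climbs for Krt5.

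Krt8 and Krt18 form the filament pair of simple epithelia. Krt8 measured 21.2, 20.4 and 45.7 contralaterally in mice 495, 485 and 512, and 39.6, 32.4 and 50.6 on the ligated side of the same mice. The groups overlap, because the contralateral kidney of mouse 512 lay above the ligated kidneys of both other mice. The log2 difference was 0.57 ± 0.21 (1.48-fold, adjusted p = 0.100 in limma), made up of 0.90, 0.66 and 0.14 in mice 495, 485 and 512. Its dimmer probe gave 0.56 ± 0.22. Without mouse 512 the difference was 0.78 and was called (adjusted p = 0.0194).

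Krt18, the type I partner of Krt8, measured 7.37, 5.22 and 35.9 contralaterally in mice 495, 485 and 512, and 24.6, 23.6 and 45.0 on the ligated side of the same mice. Again the untied kidney of mouse 512 lay above the ligated kidneys of mice 495 and 485. The log2 difference was 1.41 ± 0.42 (2.66-fold, adjusted p = 0.0673 in limma), with 1.74, 2.18 and 0.32 in the 3 mice. Without mouse 512 it was 1.96 (adjusted p = 0.00411), and Krt18 was called. The difference was larger for Krt18 than for Krt8 in each mouse, by 0.84, 1.51 and 0.18 (mean 0.84 ± 0.67 SD, n = 3 mice). An exact two-sided sign-flip test gave p = 0.25, the smallest that 3 pairs can give.

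Krt7, a type II keratin of ducts, was higher in the ligated kidney of 1 mouse and lower in that of 2. Its levels were 36.1, 20.3 and 54.1 contralaterally in mice 495, 485 and 512, and 35.8, 27.2 and 47.9 on the ligated side of the same mice. Both kidneys of mouse 512 were the highest and both of mouse 485 the lowest within their group, so the order of the mice was the same on both sides. The log2 difference was 0.08 ± 0.18 (adjusted p = 0.748 in limma), with -0.01, 0.42 and -0.18 in the 3 mice. The second probe gave -0.0036 ± 0.20. Without mouse 512 the difference was 0.21 (adjusted p = 0.372), and with all mice it was -0.23 with centring on the array's median and 0.70 ± 0.29 with quantile normalization (adjusted p = 0.138).

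Krt19, a short type I keratin of ducts, measured 0.505, 0.133 and 2.37 contralaterally in mice 495, 485 and 512, and 2.47, 1.16 and 3.42 on the ligated side of the same mice. The contralateral kidney of mouse 512 lay above the ligated kidney of mouse 485 and just under that of mouse 495. The log2 difference was 1.98 ± 0.55 (3.95-fold, adjusted p = 0.0613 in limma), with 2.29, 3.12 and 0.53 in the 3 mice. Without mouse 512 it was 2.71 and was called (adjusted p = 0.00441).

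Krt20 had the largest difference of the 6. Its levels were 0.0502, 0.115 and 0.792 contralaterally in mice 495, 485 and 512, and 3.76, 5.61 and 1.31 on the ligated side of the same mice. All 3 ligated kidneys lay above all 3 contralateral ones, as was the case for 24.7% of all genes tested, and Krt20 was the only one of the 6 without overlap. The log2 difference was 4.18 ± 1.23 (18.2-fold, adjusted p = 0.0672 in limma, and 0.0399 without the mouse block). Within mice it was 6.23 (74.9-fold), 5.60 (48.6-fold) and 0.72 (1.65-fold). Mouse 512 lay far below both other mice in this difference. The contralateral spots of mice 495 and 485 stood 1.91 and 2.93 times over their local background, so these folds start from a dim signal, and with normexp the mean difference was 3.42 ± 0.90. Without mouse 512 it was 5.91 (adjusted p = 0.00267), and Krt20 was called.

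**Figure D2:**
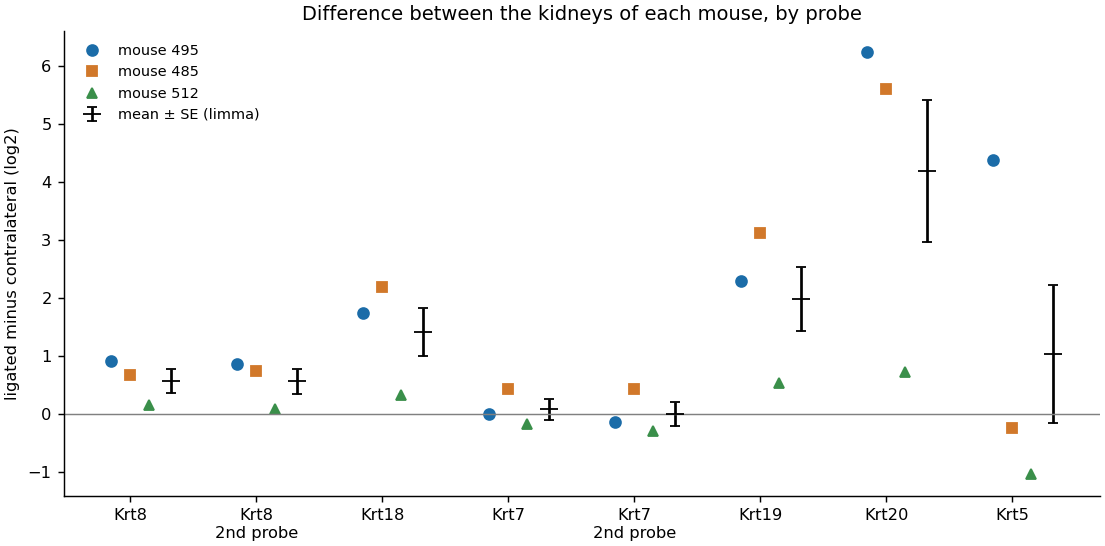
Log2 difference between the ligated and the contralateral kidney of each mouse for all 8 probes, with the mean and standard error from limma in black. Mouse 512 has the smallest difference for Krt8, Krt18, Krt19 and Krt20, and the probes of one gene lie at 0.57 and 0.56 for Krt8 and at 0.08 and -0.0036 for Krt7.

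The small differences in mouse 512 came with a high untied kidney rather than a low ligated one for Krt8, Krt18 and Krt19. Against the mean of the contralateral kidneys of mice 495 and 485, the contralateral kidney of mouse 512 was higher by a log2 of 1.14 for Krt8, 2.53 for Krt18 and 3.19 for Krt19. Its ligated kidney was higher by 1.28, 2.86 and 3.72, and the ligated kidneys of the other mice by 0.78, 1.96 and 2.71. For these 3 keratins, then, both kidneys of mouse 512 lay further from the low pair than the mean of the other ligated kidneys did, although for Krt19 the contralateral one lay just under the ligated kidney of mouse 495. Krt20 was different: 3.38 in the contralateral and 4.10 in the ligated kidney of mouse 512, both below the mean of 5.91 in the other ligated kidneys. Krt7 stood at 1.00, 0.83 and 0.21 in the same order.

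**Figure D3:**
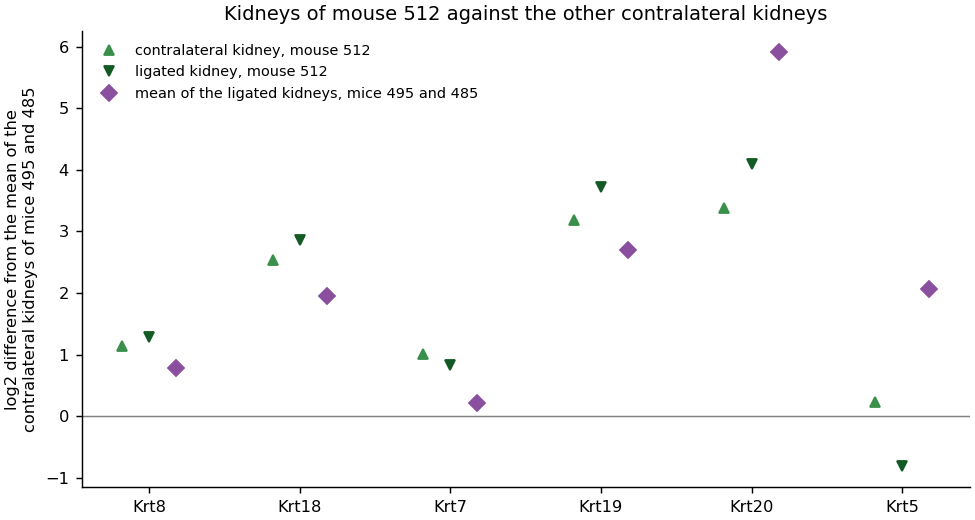
Log2 difference of 3 kidney values from the mean of the contralateral kidneys of mice 495 and 485, for each keratin: the contralateral and the ligated kidney of mouse 512, and the mean of the ligated kidneys of mice 495 and 485. Both kidneys of mouse 512 lie above the mean of the other ligated kidneys for Krt8, Krt18, Krt7 and Krt19, and below it for Krt20 and for Krt5, whose mean rests on the ligated kidney of mouse 495 alone.

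Krt5, the keratin of basal cells, was near background except in 1 kidney. Its levels for mice 495, 485 and 512 were 0.0342, 0.0364 and 0.0414 contralaterally and 0.709, 0.0307 and 0.0201 on the ligated side. The ligated kidney of mouse 495 alone was high: its spot stood 31.4 times over its local background, against 1.40 to 2.71 times in the other 5 kidneys. Mouse 495 had a log2 difference of 4.37, while mice 485 and 512 had -0.25 and -1.04. Its mean of 1.03 ± 1.19 (adjusted p = 0.517 in limma) lies near no mouse's own value, and without mouse 495 it was -0.65 (adjusted p = 0.319). Without mouse 512 it was 2.06 (adjusted p = 0.217).

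Some listed genes of urothelium and of basal epithelial cells were also high in that ligated kidney of mouse 495, and others were not. The ones named next, down to Shh, were singled out after their values were seen. Krt15, a basal keratin, measured 0.559 there and was not well above background on the other 5 arrays, so it did not enter the test. Upk1b, a uroplakin of the umbrella cell membrane, measured 0.0694 there and was not well above background elsewhere. Foxa1, a transcription factor of urothelium, did the same at 0.0226. The uroplakin Upk3a measured 0.171 in that kidney and 0.0310 in the contralateral kidney of the same mouse, and was not well above background on the other 4 arrays.

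Upk2, another uroplakin, measured 0.0558 in that kidney and 0.00960 in the ligated kidney of mouse 485, and was not well above background in the other 4. Krt14, the usual basal partner of Krt5, measured 0.164 in that kidney and 0.0252 to 0.0432 in the other 5. Not all genes of the list showed this: Upk1a measured 0.0720 in that kidney and 0.0735 in the contralateral kidney of the same mouse. A dimmer probe of Upk1a was above background only in that ligated kidney, at 0.0243. Gata3, a transcription factor of urothelium and collecting duct, was highest in the ligated kidney of mouse 485, at 1.97 against 1.47 in that of mouse 495. Upk3b was above background only in the ligated kidney of mouse 512, at 0.0144. Psca stood at 0.0909 in the ligated and 0.0725 in the contralateral kidney of mouse 495, against 0.0205 to 0.0242 in the other 4. The 1 Shh probe was above background on 0 arrays.

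Of 13 urothelial markers listed, 12 were on the array and 6 entered the test, of which 1 rose (Elf3, an epithelial transcription factor, 1.90 ± 0.44) and 1 fell (Fgfr3, a growth factor receptor, -1.41 ± 0.14). Their median was 0.12 (-0.19 with centring on the median, 0.42 on spike-in spots), against -0.01 for all genes tested. Their summed level was 4.01 to 4.15 in contralateral and 3.85 to 5.18 in ligated kidneys. That sum leaves out Upk1b, Upk2, Upk3a and Foxa1, which did not enter the test. The part that urothelium in the sample plays in the Krt5 value was not tested.

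**Figure D4:**
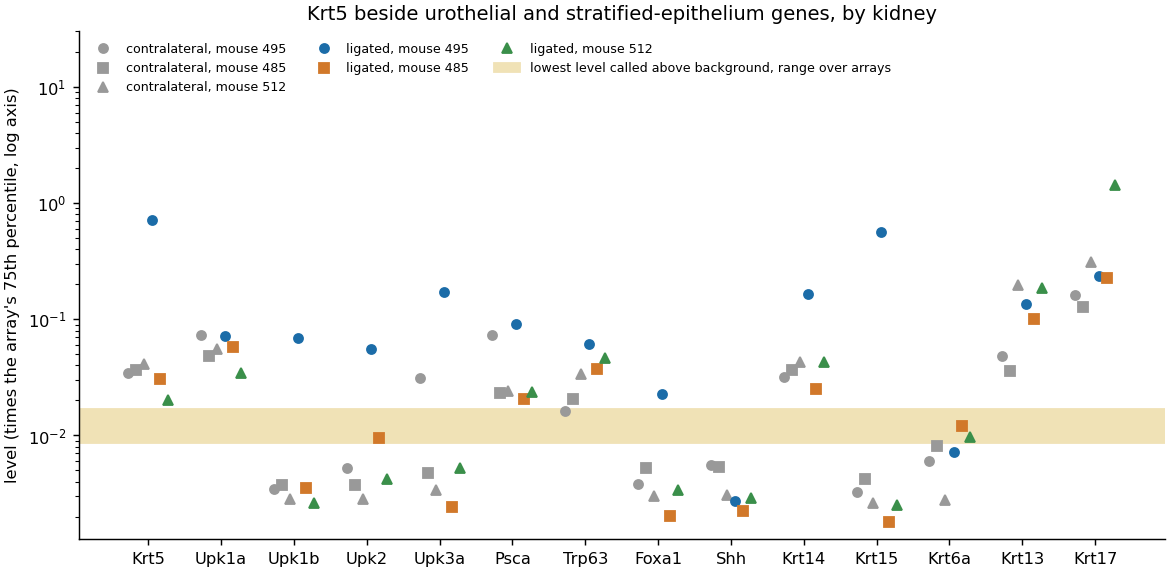
Level of Krt5 and of urothelial and stratified-epithelium genes in each kidney (log axis), contralateral kidneys in grey and ligated ones in colour, with a band for the lowest level called above background, 0.00863 to 0.0169 over the arrays. The ligated kidney of mouse 495 stands alone for Krt5 (0.709), Krt15 (0.559), Upk1b (0.0694) and Foxa1 (0.0226), and Krt17 is highest in the ligated kidney of mouse 512 (1.42).

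Mesothelial cells of the capsule also carry simple keratins. Of 8 mesothelial markers, 3 entered the test. Msln (2.85 ± 0.69) and Wt1 (1.90 ± 0.35), which podocytes also express, rose. Msln was above background on 2 of 3 contralateral arrays and entered the test through the ligated kidneys; with the filter on all 6 arrays it dropped out, and 1 of 2 tested markers rose. Gpm6a, a membrane glycoprotein, fell (-1.43 ± 0.34). Msln measured 0.470, 0.0112 and 0.353 in the ligated kidneys of mice 495, 485 and 512. In the same kidneys Wt1 was also lowest in mouse 485 (0.911, 0.834 and 1.07), while Gpm6a was highest there (1.04, 1.22 and 0.784). Among ligated kidneys, Krt7, Krt8, Krt18 and Krt19 were also lowest in that of mouse 485, Krt18 narrowly (23.6 against 24.6 in mouse 495). The other members went otherwise: Krt20 was highest in that of mouse 485, at 5.61, and Krt5 lowest in that of mouse 512, at 0.0201. The share of all genes that were lowest in the ligated kidney of mouse 485 was not worked out. Lrrn4 and Bnc1 were above background on 0 arrays. The part of mesothelium in the keratin values was not tested.

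Of 18 other keratins listed, 17 were on the array and 9 entered the test, and 6 were above background on no array. Of the 9, 1 was called higher and 1 lower, and the median was -0.02 (-0.32 with centring on the median, 0.28 on spike-in spots), against 1.22 for the 6 simple and urothelial keratins. Krt10, a keratin of differentiated epidermis, fell by 1.01 ± 0.23 on its brighter probe. Its dimmer probe fell further, from 0.240, 0.304 and 0.106 contralaterally in mice 495, 485 and 512 to 0.0399, 0.0518 and 0.0478 on the ligated side. The higher call was Krt12, a corneal keratin whose probe was not well above background on any contralateral array and entered the test only through the ligated kidneys. It measured 0.0129, 0.0170 and 0.0150 in those of mice 495, 485 and 512, which bounds no rise. With the filter on all 6 arrays, 0 of 8 other keratins were called higher and 1 lower. Without mouse 512, 3 of the 9 were called higher and 3 lower, in a fit that called 27.3% of all genes higher and 28.9% lower.

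Of 9 intermediate filament genes other than keratins, 8 were tested and 6 were called higher, with a median of 1.52. Prph, of peripheral neurons, named after its values were seen, was called but was not well above background on any contralateral array and was at least 2.27-fold higher; with the filter on all 6 arrays, 5 of 7 rose, with a median of 1.33. Desmin (Des), of muscle and mesangial cells, rose by 2.19 ± 0.27 and vimentin (Vim), of mesenchymal and injured epithelial cells, by 2.03 ± 0.36. Of 15 genes of desmosomes and keratin anchoring, 13 were tested, 1 rose (Itgb4, the hemidesmosome integrin that binds keratin filaments through plectin, 1.35 ± 0.19) and 0 fell, with a median of 0.48. Without mouse 512, 7 rose and 3 fell, in a fit that called 27.3% of all genes higher and 28.9% lower. The desmosomal plaque protein Dsp, which ties keratin to the desmosome, stood at 1.24 ± 0.36 (adjusted p = 0.0649 in limma), with 1.41, 1.96 and 0.35 in mice 495, 485 and 512, and was picked after its value was seen.

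Of 16 general epithelial markers, 3 rose and 1 fell, with a median of 0.76. Without mouse 512, 10 rose and 1 fell, against 27.3% and 28.9% of all genes. The transcription factor Ehf rose (1.13 ± 0.23) and the splicing factor Esrp2 fell (-1.38 ± 0.24). Cdh1, the epithelial cadherin, was picked after its value was seen and stood at 0.06 ± 0.15. The summed level of this list was 37.3, 31.1 and 66.2 contralaterally in mice 495, 485 and 512, and 67.2, 59.4 and 72.8 on the ligated side of the same mice, again with the untied kidney of mouse 512 among the ligated ones.

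Markers of the collecting duct and distal tubule, where simple keratins are known, had medians below 0. Of 10 principal cell markers of the collecting duct, 7 fell and 0 rose (median -1.30), led by the water channels Aqp2 (-2.88 ± 0.15) and Aqp3 (-2.66 ± 0.35). Of 10 intercalated cell markers, 6 fell and 0 rose (median -1.20), led by the chloride exchanger Slc26a4 (-2.54 ± 0.26) and the ammonia transporter Rhbg (-2.35 ± 0.33). Of 11 tested loop and distal tubule markers, 2 fell and 0 rose (median -0.92), namely the thiazide-sensitive transporter Slc12a3 (-1.84 ± 0.43) and the claudin Cldn10 (-1.35 ± 0.27). Without mouse 512, 10 of these 11 fell, against 28.9% of all genes. With spike-in centring, 2 principal cell and 3 intercalated cell markers fell. That fit called 725 of all 19601 genes lower, against 2883 with the main scaling.

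Of 16 proximal tubule markers, 10 fell and 0 rose (median -2.29), led by the anion transporters Slc22a8 (-4.10 ± 0.93) and Slc22a6 (-3.60 ± 0.79). Of 12 tubular injury markers, 4 rose and 0 fell (median 1.86), with the hyaluronan receptor Cd44 at 4.12 ± 1.01 and the adhesion molecule Vcam1 at 3.79 ± 0.69. Without mouse 512, 16 of the proximal markers fell, and 11 of the injury markers rose and 1 fell. That fit called 27.3% of all genes higher and 28.9% lower. The injury markers' medians in mice 495, 485 and 512 were 2.21, 2.77 and 0.16, and those of the 6 keratins 2.01, 1.42 and 0.23. The keratins behind these medians differed widely, from -0.01 to 6.23, from -0.25 to 5.60 and from -1.04 to 0.72 in the same mice. Of 7 podocyte markers, 4 rose and 0 fell (median 1.25), among them Wt1 and Synpo (1.42 ± 0.25), and of 12 leukocyte markers 8 rose and 0 fell (median 2.30), led by Adgre1 (3.42 ± 0.48) and Lyz2 (3.24 ± 0.38). Without mouse 495, and likewise without mouse 485, 0 genes of any list were called in limma, as was the case for all genes. The parts that tubule loss, injury and leukocytes play in the keratin values were not tested.

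**Figure D5:**
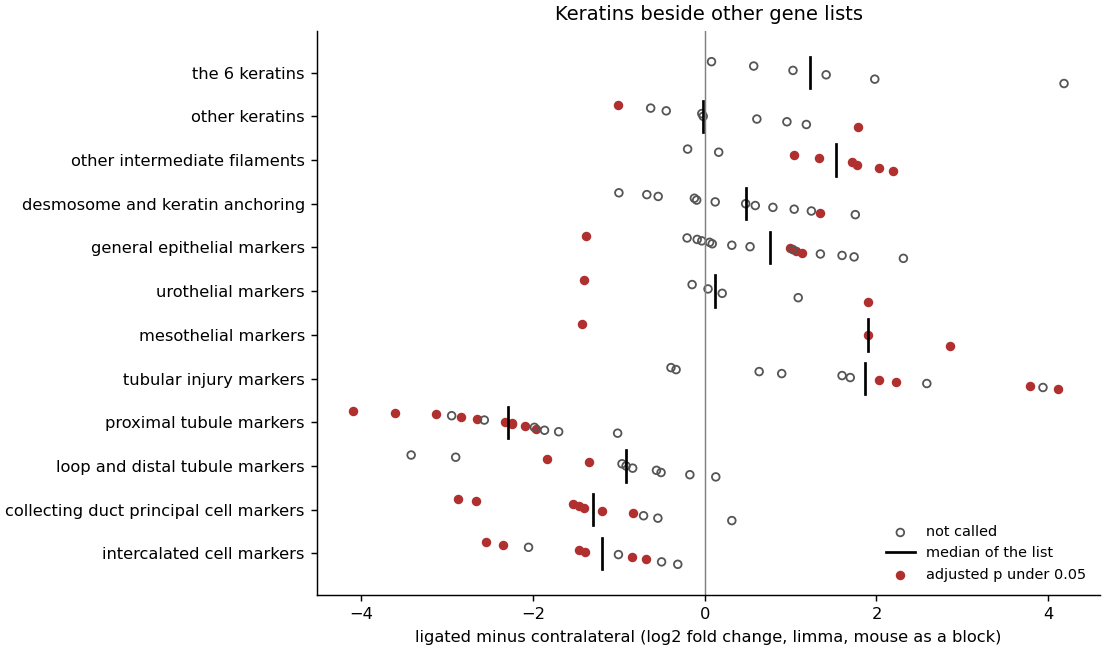
Log2 difference between ligated and contralateral kidneys for each tested gene of 12 lists, filled where limma's adjusted p is under 0.05, with the list median as a bar. The 6 keratins spread from 0.08 to 4.18 with a median of 1.22 and 0 called, while 7 of 10 principal cell markers of the collecting duct fell.

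The keratins differed among themselves across the 6 kidneys. With each gene's log2 level centred on its own mean, the Euclidean distance over the 6 arrays was 0.83 between Krt7 and Krt8, 1.52 between Krt18 and Krt19, and 1.61 between Krt8 and Krt18. Krt20 was at least 4.30 from every other of the 6 and Krt5 at least 4.18. The levels were centred but not scaled, so a distance also grows with the size of a gene's differences between kidneys. Seen from Krt19, Krt18 ranked 127 among 19600 other genes by nearness. Seen from Krt8, its filament partner Krt18 ranked 9390, and seen from Krt18, Krt8 ranked 1497. Seen from Krt20, the others of the 6 ranked from 1963 (Krt18) to 8769 (Krt5), while seen from Krt18, Krt20 ranked 17577.

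The mean profile of the 6 keratins averages unlike genes, so nearness to it is not nearness to any single keratin. Among 14011 other genes with a current symbol, the 5 nearest to that mean profile lay at distances of 0.43 to 0.49. They were Ifit1, an interferon-induced gene (0.43), Bbc3, a promoter of apoptosis (0.44), Nipal1 (0.47), Abcc4, an efflux pump (0.48), and Tle6 (0.49). Each had its smallest difference in mouse 512, between 0.03 and 0.41, and none was called in limma (adjusted p from 0.0586 to 0.101). The mean profile itself went only from 0.50 to 0.59 between the kidneys of mouse 512. The small difference in that mouse, and the spread between mice that comes with it, therefore follow from how these genes were picked.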

How the data were processed

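Total RNA was labelled with Cy3 and hybridised to single-colour Agilent arrays (design 014868), per the labels and the file headers. The authors deposited 1 scanner table per array with intensity values: a processed signal, which per the file headers had local detrending and background subtraction but no scaling between arrays, and raw spot and background intensity. The file headers give Feature Extraction 10.5.1.1 and the submitters' processing notes 9.1. The flags for background, saturation and outliers are other deposited values of 0 or 1, per the file headers. The authors also deposited a value table holding a ratio, the processed signal over the array's median (99% of spots within 0.00289% on every array), used as an alternative.

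Control spots and flagged outlier spots (43 to 79 per array) were left out, 0 spots were saturated, and log2 signals were centred on the array's 75th percentile (671 to 1432). Between 65.3% and 74.2% of probes were above background on an array, and the number of arrays limits the precision. Probes above background on all 3 arrays of a group were kept, and the brightest stood for its gene. Of 41174 probes, 24402 took a current symbol through a RefSeq accession. The test was limma 3.58.1 under R 4.3.3 (lmFit, eBayes, two-sided, Benjamini-Hochberg), with the mouse as a block, which leaves 2 residual degrees of freedom plus 2.05 from eBayes. The labels pair the kidneys by mouse number; within mice, deviations from group means correlated at 0.194, 0.481 and 0.271 (mice 495, 485 and 512). P-values measure the spread between these animals in the difference between their kidneys, with each gene's variance drawn by eBayes toward that of all genes. The fit was tested on simulated data.

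The 6 genes and the gene lists were chosen with earlier results of these data known. Genes named are the 6 keratins, from each list the called genes with the 2 largest changes, the 5 genes nearest in profile, 4 tissue markers, and those said to be picked afterwards. Alternatives were other blocks, mice left out, other scalings, background correction, probe filters, probe averaging, the value table and an intensity trend.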

Additional observations from a re-analysis of the deposited data

How the results depend on the processing

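Across the 15 alternatives Krt8, Krt18, Krt19 and Krt20 kept a positive log2 difference, between 0.26 and 1.21, 1.03 and 2.26, 1.41 and 3.04, and 3.16 and 5.91, while the calls moved. Against 0 of the 6 keratins called, there was 1 with no replicate block (Krt20), 1 with normexp background correction (Krt19) and 1 with an intensity trend (Krt19). There were 2 with the slide as the block (Krt18 and Krt20) and 2 after spike-in centring (Krt19 and Krt20). Leaving out 1 mouse gave between 0 and 4, the 4 without mouse 512, and leaving out only its contralateral kidney, with no block, also gave 4. The value of Krt5 ran from -0.65 without mouse 495 to 2.06 without mouse 512. That of Krt7 turned to -0.23 with centring on the median and with the deposited value table, and with 1 mouse left out it ran from -0.093 (without mouse 485) to 0.21. Quantile normalization gave Krt7 its highest value, 0.70. Of all genes, 6014 were called, between 0 and 11021 with 1 mouse left out (0 without mouse 495 and 0 without mouse 485, with 4950 and 4952 at an unadjusted p under 0.05). There were 11034 without the contralateral kidney of mouse 512, 3192 with spike-in centring and 2661 with no filter. Centring on the median moved the median of all genes from -0.01 to -0.32 (2562 higher and 5938 lower calls, against 3131 and 2883), and spike-in centring to 0.29 (2467 and 725). With no filter it was -0.23 (1759 and 902), with normexp -0.18 (1994 and 2788) and with the filter on all 6 arrays -0.11 (2446 and 3351). The cause of these moves was not tested. Krt5 was too near background in 5 of 6 kidneys for its order among them to be read.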

Other observations

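The genes here were picked after their values were seen. Krt17, a type I keratin of basal and activated epithelial cells, measured 0.162, 0.127 and 0.313 contralaterally in mice 495, 485 and 512, and 0.234, 0.227 and 1.42 on the ligated side. Its log2 difference was 2.18 in mouse 512, against 0.53 and 0.84 in mice 495 and 485, and it was not called (1.18 ± 0.38, adjusted p = 0.0795 in limma). Krt13, a keratin of intermediate urothelial layers, measured 0.0482, 0.0362 and 0.196 in the contralateral and 0.135, 0.100 and 0.185 in the ligated kidneys of the same mice, so that the untied kidney of mouse 512 was the highest (0.96 ± 0.39, adjusted p = 0.124). The claudins Cldn3 and Cldn4 of tight junctions stood at 2.31 ± 0.59 and 1.74 ± 0.63 (adjusted p = 0.0523 and 0.0984), with differences of 0.68 and 0.0014 in mouse 512 against 2.56 to 3.16 in the others.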
